A study of Mus musculus with 6 samples.

Results

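Tcf7, Lef1, Tcf7l1 and Tcf7l2, which encode the mouse Tcf/Lef factors, and Runx1, Runx2, Runx3 and Cbfb, which encode the Runx factors and their shared partner, are 8 of the 23401 genes or joined gene units in the deposited tables. They were taken by name as DNA-binding factors, with the partner of the Runx proteins, that are known to work with Groucho/Tle corepressors. Each had a locus of its own under its symbol in all 6 libraries, so no value was shared with another symbol. RNA had been sequenced from mouse thymocytes of the double-negative 1 (DN1) stage, sorted as lacking lineage markers, TCRb, CD8a and CD25 and carrying CD44, from animals 5 to 8 weeks old. The labels give 3 WT libraries and 3 Tle134-deficient libraries, where Tle134 is read as Tle1, Tle3 and Tle4. The alleles, the means of deletion and the origin of each library (separate animals or not) are not stated in the labels, so a p-value here reflects only how far these libraries differ among themselves, some of which may be technical.

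Groucho/Tle proteins do not bind DNA themselves and are brought to genes by factors such as Tcf/Lef and Runx. Tcf/Lef proteins share an HMG box and can act as repressors with Tle or as activators with beta-catenin, which competes for them. Runx proteins share a Runt domain, bind DNA together with Cbfb, and end in a short peptide that Tle recognises. In the thymus Tcf7 (the TCF-1 gene) is a Notch-induced factor needed for T-cell specification, Lef1 overlaps with it in function, Runx1 acts in progenitors and thymocytes, and Runx3 is known for silencing Cd4 in CD8 cells and for its part in innate-like lymphocytes.

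The 3 Runx genes share a run of letters near a start site, shown here because it is a feature common to the family that does not come from the RNA values. The Runx DNA motif is AACCACA, searched on both strands of the RefSeq promoter windows (250 bases before to 50 after a start site, build GRCm38.p6). The longest run of letters common to all 3 genes is 18 bases long and holds that motif 2 times in tandem. The capitals mark this run, and each line reads 5′ to 3′ on the strand of the gene.
Runx1: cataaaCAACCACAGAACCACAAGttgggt
Runx2: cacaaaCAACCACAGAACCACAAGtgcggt
Runx3: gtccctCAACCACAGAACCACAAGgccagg
The Runx1 stretch is chr16:92826025-92826054 on the minus strand, with the shared run beginning at base 27 from the start site. The Runx2 stretch is chr17:44814583-44814612 on the minus strand, with the run beginning at base 22, and the Runx3 stretch is chr4:135120503-135120532 on the plus strand, with the run beginning at base -136, before the start. The run was in 4 of 32851 windows (0.0122%), the fourth being a window of the predicted gene Gm16225 that overlaps the Runx3 window. The motif AACCACA alone was in 5.27% of all windows and, among the 15 windows of the 8 genes, in the same 3. The Tcf/Lef motif ATCAAAG, also searched on both strands, was in 3.73% of all windows and in 0 of these 15, which says only that these letters are not in these windows.

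Depth and markers set the precision of what follows. If the deposited bounds span 2 SD on either side of a fragment count, they imply 1.41e+06 to 4.34e+06 fragments per library in loci with a symbol. Replicate 1 of each group is the shallowest (1.41e+06 and 1.5e+06). Cd44 measured 27.5 to 74.3 FPKM (fragments normalised to transcript length and to the mapped reads of the library) in the 6 libraries and Cd8a 0 to 2.48 FPKM, as the sort gate describes. Il2ra, the gene of CD25, which the gate excludes, was not absent. It measured 1.69 to 3.59 FPKM in the WT libraries and 4.22 to 7.36 FPKM under the Tle134-deficient label. The targeted genes were not lower under the Tle134-deficient label. Tle1 measured 1.37, 1.19 and 3.61 FPKM in the WT libraries but 11.5, 11.3 and 11.1 FPKM under that label, and Tle3 was also higher there. Tle4 overlapped between the groups. None of these 3 genes had a limma adjusted p under 0.05 (0.0954 for Tle1, 0.234 for Tle3 and 0.726 for Tle4). The group is therefore called the labelled-deficient libraries, and every direction below follows the labels. Reads outside a deleted exon would count toward a whole locus, but values per exon were not available, so this was not tested. B-cell markers summed to 82.8 to 137 FPKM in the WT libraries and 623 to 1040 FPKM in the labelled-deficient ones, with 9 of 12 higher past the threshold and 0 of the 12 at 0 in every library. That count fell to 0 when WT replicate 1 or either of the first 2 labelled-deficient libraries was left out, and to 1 when WT replicate 2 was. It was also 0 with low genes tested too or with equal summed FPKM, and 1 with the replicate block. Labelled-deficient replicate 3 stood apart in myeloid markers, which summed to 1440 FPKM against 107 to 603 FPKM in the other 5 libraries.

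The question asked of these genes was whether the factors that recruit Tle differ in transcript level between the 2 genotypes. None passed the threshold. Of the 8, limma on log2(FPKM + 1) called 0 at an adjusted p under 0.05, where 0.750% of the 11063 genes tested were called (0.642% higher and 0.108% lower), and 0 at an unadjusted p under 0.05, where 10.0% of all genes were. The log2 difference (labelled-deficient minus WT) was above 0 for Runx1 and below 0 for the other 7, with a median of -0.32 against 0.04 over all genes tested. All 8 passed the filter of 1 FPKM in at least 3 libraries, Tcf7l1 with exactly 3. In bulk RNA, fewer cells of a type and less RNA per cell cannot be told apart.

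**Figure D1:**
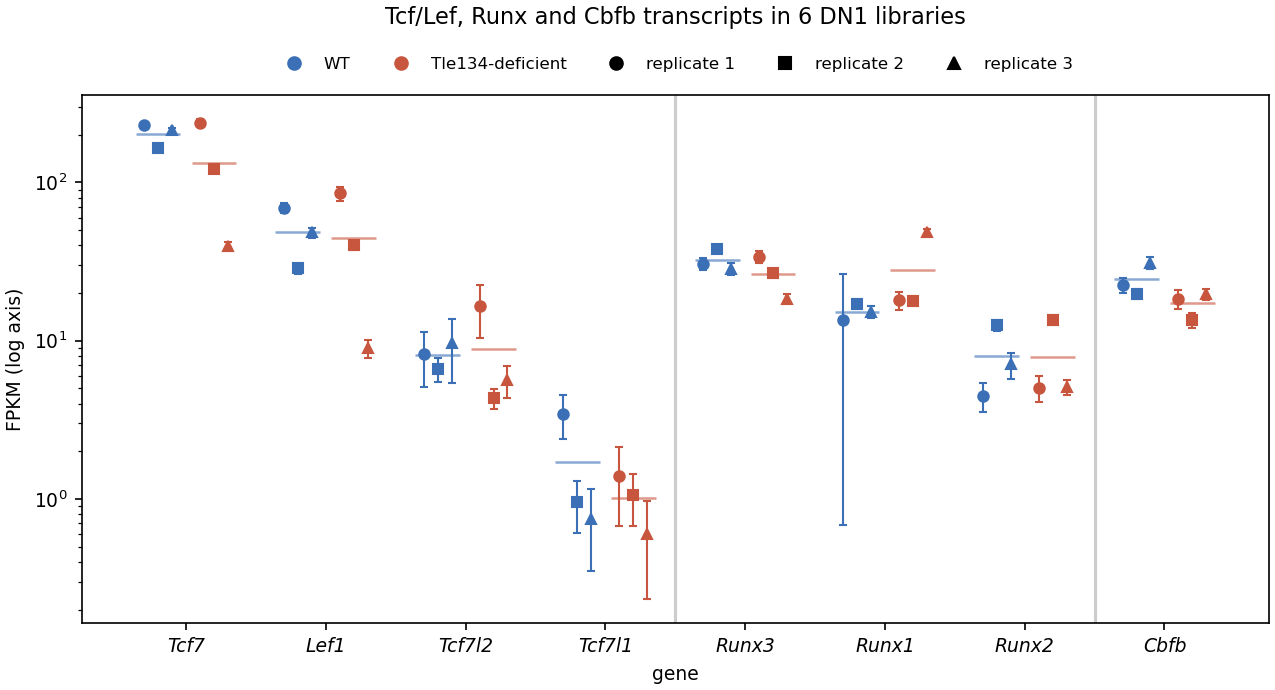
FPKM of each gene on a log axis in the 3 WT (blue) and 3 labelled Tle134-deficient (red) libraries, with circles, squares and triangles for replicates 1, 2 and 3, bars for the deposited lower and upper bounds and lines for group means. Tcf7 is the highest gene in every library but labelled-deficient replicate 3, where Runx1 at 48.3 FPKM lies above Tcf7 at 39.5 FPKM.

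Tcf7 was the most abundant of the 8 in WT. It lies on chromosome 11 (52065821 to 52096788 in WT replicate 1, mm9 as are the gene positions that follow). It measured 229, 164 and 213 FPKM in WT replicates 1, 2 and 3 and 239, 121 and 39.5 FPKM in labelled-deficient replicates 1, 2 and 3. The first labelled-deficient library was above every WT library and the other 2 were below every WT library, so the groups overlapped. Means were 202 ± 33.7 and 133 ± 100 FPKM (SD, n = 3 each), and the log2 difference was -0.93 ± 0.66 (SE, 95% interval -2.41 to 0.55, limma adjusted p = 0.736). Labelled-deficient replicate 3 carried most of it: without that library the log2 difference was -0.23 (adjusted p = 0.924). The deposited bounds in that library, which had the most implied fragments of the 6, were 37.1 and 41.9 FPKM. In WT, Tcf7 ranked 171 of the 11063 genes by mean FPKM.

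Lef1, on chromosome 3 (130813215 to 130927275), followed the same order of libraries in the labelled-deficient group. It measured 69.5, 28.6 and 48.4 FPKM in the WT libraries and 85.6, 40.1 and 8.93 FPKM in the labelled-deficient ones. The highest and the lowest of the 6 values were thus both labelled deficient. The log2 difference was -0.52 ± 0.73 (SE, limma adjusted p = 0.912), and it changed sign to 0.35 (adjusted p = 0.884) without labelled-deficient replicate 3. Its spread was wide, with the highest library 9.59 times the lowest, and its variance over the 6 libraries was above that of 86.7% of the genes tested.

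Tcf7l1 and Tcf7l2, the Tcf3 and Tcf4 proteins of the Wnt literature (not the E proteins of the same names), were minor. Tcf7l2 (chromosome 19, 55816300 to 56008145) measured 8.2, 6.65 and 9.61 FPKM in the WT libraries and 16.5, 4.33 and 5.63 FPKM in the labelled-deficient ones, with a log2 difference of -0.09 ± 0.52 (limma adjusted p = 0.986). Tcf7l1 (chromosome 6, 72576365 to 72739039), known as a repressor in stem cells, measured 3.46, 0.954 and 0.751 FPKM in WT against 1.4, 1.06 and 0.603 FPKM (-0.32 ± 0.52, adjusted p = 0.935). The groups overlapped for both genes, and both differences changed sign when 1 library was left out: Tcf7l2 was at 0.25 without labelled-deficient replicate 2, 0.09 without labelled-deficient replicate 3 and 0.02 without WT replicate 3, and Tcf7l1 at 0.11 without WT replicate 1. Tcf7l1 is imprecise, with deposited bounds that reached 30.6% to 61.2% of the value on each side.

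The summed Tcf/Lef level overlapped between the groups, and Tcf7 made up most of it in every library. Over the 4 genes the sum was 310, 201 and 272 FPKM in the WT libraries and 342, 167 and 54.6 FPKM in the labelled-deficient ones. Tcf7 held 78.1% ± 4.06 of that sum in WT and 71.6% ± 1.57 in the labelled-deficient libraries (SD, n = 3 each). The Tcf7 shares were 73.9%, 82.0% and 78.4% in WT and 69.8%, 72.7% and 72.3% in the labelled-deficient libraries, without overlap, though the nearest values of the groups differ by little and the difference was not tested. These shares are taken within a library and do not depend on how libraries are scaled. Lef1 held 14.3% to 22.4% in WT and 16.3% to 25.0% in the labelled-deficient libraries. In labelled-deficient replicate 3 the share of Tcf7l2 was 10.3%, against 2.6% to 4.82% in the other 5 libraries, and that of Tcf7l1 was 0.276% to 1.11% over the 6.

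**Figure D2:**
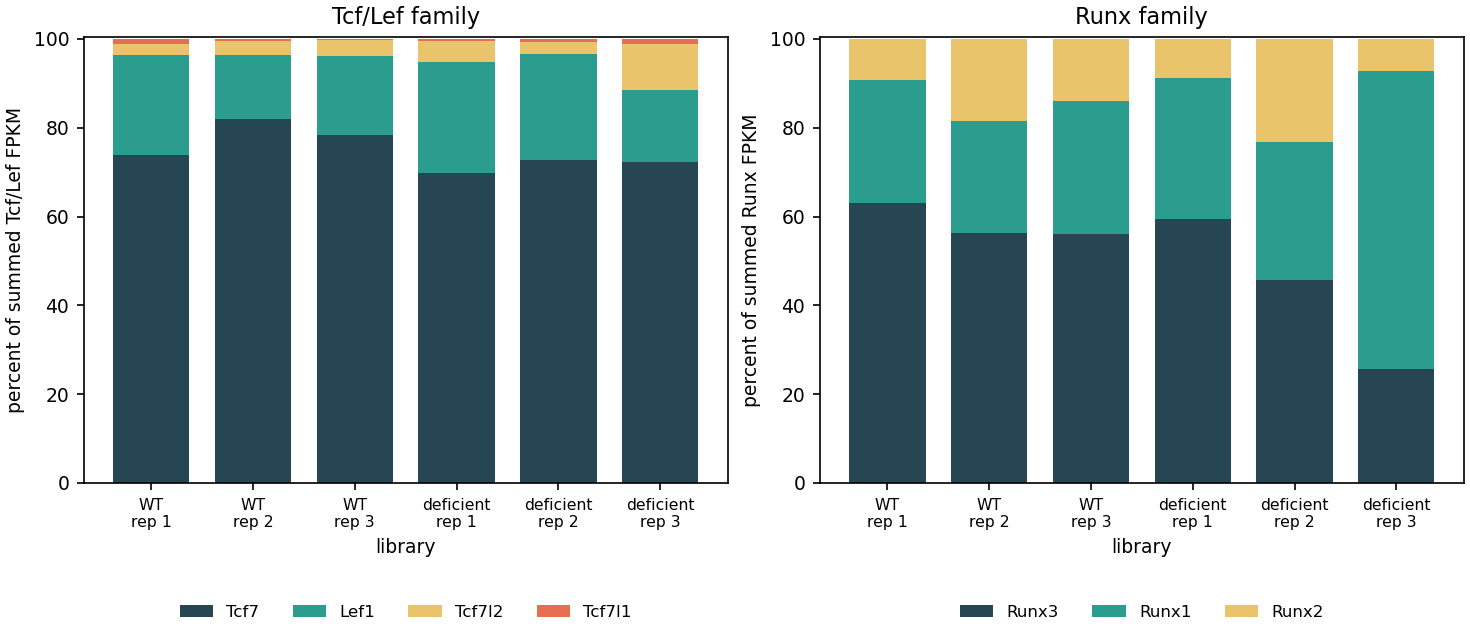
Percent of the summed FPKM of the Tcf/Lef genes (left) and of the Runx genes (right) held by each gene, 1 bar per library. Tcf7 fills 69.8% to 82.0% of the left bars in all 6 libraries, while on the right Runx1 passes from 25.2% to 31.6% in 5 libraries to 67.2% in labelled-deficient replicate 3.

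Among the Runx genes, Runx3 was the highest in WT and Runx1 the only member of the 8 with a difference above 0. Runx1 (chromosome 16, 92601711 to 92826319) measured 13.5, 17.1 and 15.2 FPKM in the WT libraries and 18.0, 17.9 and 48.3 FPKM in the labelled-deficient ones. All labelled-deficient values exceeded all WT values, a separation in that direction seen for 8.67% of all genes tested (15.2% in either direction). Labelled-deficient replicate 3 was far above the rest. The means were 15.3 ± 1.79 and 28.1 ± 17.5 FPKM (SD, n = 3 each) and the log2 difference 0.69 ± 0.46 (SE, 95% interval -0.35 to 1.72, limma adjusted p = 0.718). Without labelled-deficient replicate 3 it was 0.23 (adjusted p = 0.903).

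The gap between the groups for Runx1 is narrower than the deposited bounds. WT replicate 2 had bounds of 16.0 and 18.3 FPKM, which take in the values of labelled-deficient replicates 1 and 2. WT replicate 1 had bounds of 0.684 and 26.4 FPKM, or 94.9% of the value on each side, although Runx3 in the same library had 8.99%. The wide bound belongs to that locus in that library, and in the other 5 libraries the bounds of Runx1 reached 5.76% to 13.2% on each side.

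Runx3 (chromosome 4, 134676560 to 134733905 in WT replicate 1) measured 30.7, 38.2 and 28.5 FPKM in the WT libraries and 33.9, 26.6 and 18.4 FPKM in the labelled-deficient ones. The groups overlapped through labelled-deficient replicate 1, and labelled-deficient replicate 3 was again the lowest of the 6. The log2 difference was -0.32 ± 0.40 (limma adjusted p = 0.891). It was among the steadier genes, with a variance above that of only 10.2% of the genes tested.

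Runx2 (chromosome 17, 44632936 to 44951746), best known as the factor of bone formation and also expressed in plasmacytoid dendritic cells and some progenitors, measured 4.48, 12.5 and 7.08 FPKM in the WT libraries and 5.05, 13.6 and 5.11 FPKM in the labelled-deficient ones. Replicate 2 was the highest in both groups, and the log2 difference was -0.05 ± 0.53 (limma adjusted p = 0.996). It was 0.29 without WT replicate 2, and 0.16 both without labelled-deficient replicate 1 and without labelled-deficient replicate 3. Its locus overlaps that of Supt3, a subunit gene of a coactivator complex, at 3.38 to 18.7 FPKM over the 6 libraries, so with the use of strand not stated some reads there cannot be assigned with certainty. Of 10 dendritic markers, Flt3 (2.88, 18.6 and 14.6 FPKM in the WT libraries, then 3.6, 11.1 and 5.65 FPKM) and Itgax (2.77, 5.49 and 0.517 FPKM, then 1.65, 2.57 and 2.07 FPKM) were likewise highest in replicate 2 of both groups, and Siglech (8.38, 0.233 and 0 FPKM, then 3.54, 1.93 and 0.362 FPKM) was highest in replicate 1 of both. The rest of these markers were not highest in replicate 2 of both groups, among them Bst2 (9.43, 5.96 and 22.1 FPKM, then 21.1, 4.75 and 18.8 FPKM). The part of dendritic cells in the Runx2 values was not tested.

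Cbfb (chromosome 8, 107694574 to 107741888), which does not bind DNA but stabilises the Runx proteins on it, measured 22.4, 19.8 and 31.1 FPKM in the WT libraries and 18.5, 13.5 and 19.7 FPKM in the labelled-deficient ones. Every labelled-deficient value was below every WT value, as for 6.56% of all genes tested in that direction. The separation is slight: WT replicate 2 had bounds of 18.3 and 21.3 FPKM and labelled-deficient replicate 3 bounds of 18.1 and 21.3 FPKM. The log2 difference was -0.47 ± 0.39 (SE, 95% interval -1.34 to 0.39, limma adjusted p = 0.782), and it ranged from -0.61 to -0.29 as each library was left out. Labelled-deficient replicate 3, without which the Tcf7, Lef1 and Runx1 differences shrank or changed sign, left this one at -0.57 when removed.

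**Figure D3:**
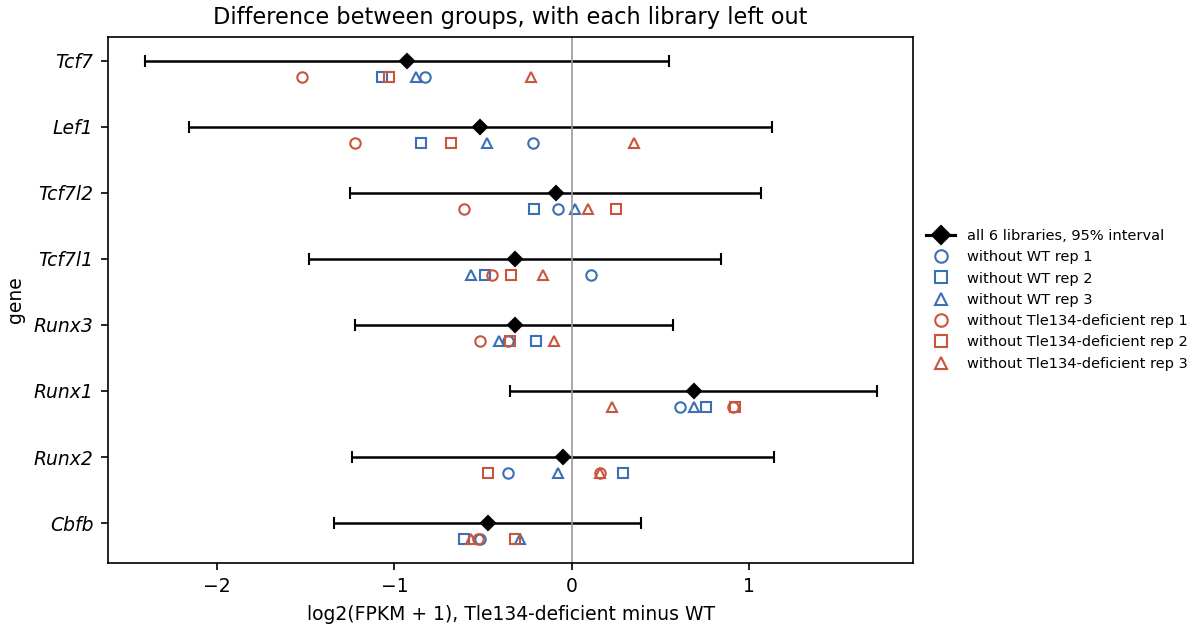
Difference in log2(FPKM + 1), labelled Tle134-deficient minus WT, for each gene: black diamonds and lines give the estimate over all 6 libraries with its 95% interval, and open symbols the estimate with 1 library left out. Every interval spans 0, and the red triangle (without labelled-deficient replicate 3) lies nearest 0 or beyond it for Tcf7, Lef1, Runx3 and Runx1.

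The order of levels, per length of transcript, was clear in WT at the top and the bottom. Tcf7 (164 to 229 FPKM) lay above Lef1 without overlap, Cbfb above Runx1, Runx1 above Tcf7l2, and Runx2 above Tcf7l1. Lef1 and Runx3, Runx3 and Cbfb, and Tcf7l2 and Runx2 overlapped in their WT ranges and cannot be ordered. In the labelled-deficient libraries the ranges of all neighbours in the order overlapped except Runx2 (5.05 to 13.6 FPKM) and Tcf7l1 (0.603 to 1.4 FPKM).

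Ratios between members within a library were most unlike WT in labelled-deficient replicate 3. Runx3 was 2.27, 2.23 and 1.87 times Runx1 in WT and 1.88, 1.48 and 0.381 times Runx1 in the labelled-deficient libraries. Tcf7 was 16.9, 9.61 and 14.0 times Runx1 in WT and 13.2, 6.76 and 0.817 times in the labelled-deficient libraries. Both ratios lay within the WT range in labelled-deficient replicate 1 and below it in replicates 2 and 3, and in replicate 3 Runx1 was the leading transcript of the 8. The ratio of Runx1 to Cbfb was 0.604, 0.864 and 0.491 in WT and 0.976, 1.33 and 2.45 in the labelled-deficient libraries. That these do not overlap follows from Runx1 and Cbfb, each of which was already separate between the groups, and adds nothing to them. The summed Runx level over Cbfb was 2.17, 3.42 and 1.64 in WT and 3.09, 4.32 and 3.65 in the labelled-deficient libraries, with overlap.

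Markers of other cell types also varied among the libraries, in part alongside the members. T-lineage markers, 12 of 12 at 1 FPKM or more in every library, summed to 820, 326 and 1050 FPKM in the WT libraries and 581, 244 and 206 FPKM in the labelled-deficient ones. WT replicate 2 was the WT library lowest in Tcf7, Lef1 and the T-lineage sum, and labelled-deficient replicate 3 the lowest of all 6 in each of them. Labelled-deficient replicate 1, the highest of the 6 in Tcf7 and Lef1, had a T-lineage sum below those of WT replicates 1 and 3. Myeloid markers summed to 128, 295 and 603 FPKM in the WT libraries and 107, 123 and 1440 FPKM in the labelled-deficient ones, with 7 to 9 of 10 at 1 FPKM or more. Of these markers, 0 of 12 T-lineage and 0 of 8 tested myeloid genes passed the limma threshold between the groups, where 0.750% of all genes tested did. All 12 T-lineage differences were below 0, with a median of -0.84 against 0.04 over all genes tested. For the myeloid genes 5 were above 0 and 3 below, with a median of 0.17. The highest myeloid library was the one highest in Runx1, with Mpo, a granule enzyme of myeloid progenitors, at 589 FPKM and Itgam at 39.2 FPKM there against 2.05 FPKM or less elsewhere. After Mpo, its largest values were S100a9 (333 FPKM) and Elane (266 FPKM). Lyz2 (28.9 FPKM, against 65.8 FPKM in WT replicate 3), S100a8 (22.9 against 30.8 FPKM) and Cd14 (0.54 FPKM, against 4.81 FPKM in labelled-deficient replicate 1) were not highest there. The other markers of the list were. WT replicate 3, which was second in myeloid markers, had a Runx1 level of 15.2 FPKM, between those of WT replicates 1 and 2 (13.5 and 17.1 FPKM). The part of these cells in the Tcf7, Lef1 and Runx1 values was not tested.

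B-lineage markers did not follow that pattern. Relative to the WT mean, their mean log2(FPKM + 1) was 3.22, 3.05 and 2.36 in labelled-deficient replicates 1 to 3, while Tcf7 was 0.25, -0.72 and -2.31. The library with the highest B-lineage sum, labelled-deficient replicate 1 at 1040 FPKM, was also the one with the highest Tcf7. Innate lymphoid markers, of cells that also express Tcf7 and Runx3, summed to 55.2 to 85.0 FPKM in the WT libraries and 28.9 to 61.2 FPKM in the labelled-deficient ones, lowest in replicate 3, with 5 to 8 of 10 at 1 FPKM or more. Gamma-delta T-cell markers were also lowest there (73.7 FPKM against 165 to 290 FPKM in the other libraries), with 5 or 6 of 6 at 1 FPKM or more. Of these 6 genes 3 differences were above 0 and 3 below, and 1 gene, 5830411N06Rik, was lower past the threshold. It measured 70.3, 74.2 and 57.4 FPKM in the WT libraries and 14.5, 8.14 and 3.02 FPKM in the labelled-deficient ones (limma adjusted p = 0.0353). Mast cell and basophil markers summed to 56.9 to 291 FPKM in the WT libraries and 2.13, 5.44 and 129 FPKM in the labelled-deficient ones. Of 9 tested, 8 differences were below 0 and 1 above. Tpsb2 and Cma1 were listed at 0 in all 3 labelled-deficient libraries. In labelled-deficient replicate 3, Ms4a2, Hdc and Gata2 instead measured 30.1, 27.9 and 32.3 FPKM, where no WT library exceeded 4.66, 7.66 and 9.92 FPKM. Of the other lists, erythroid and megakaryocytic markers were highest in labelled-deficient replicate 3 (45.3 FPKM against 1.83 to 11.5 FPKM), and stromal and endothelial markers lowest there (41.8 FPKM against 73.6 to 219 FPKM). Of 8 stromal and endothelial genes tested, 1 was lower past the threshold, Pdgfrb (15.0, 22.1 and 14.8 FPKM, then 2.38, 2.4 and 3.63 FPKM, limma adjusted p = 0.0469). Over all genes tested 0.108% were lower past it. NK and cytotoxic markers summed to 82.0 to 300.0 FPKM and dendritic markers to 119 to 171 FPKM over the 6 libraries. Of the 10 NK and cytotoxic markers only 3 to 8 were at 1 FPKM or more in a library, and Ncr1 reached at most 0.153 FPKM. Their sum includes Nkg7 at 35.8 to 149 FPKM, a value joined with Cldnd2, Etfb and Mir7051. The part of each of these in the members' values was not tested.

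**Figure D4:**
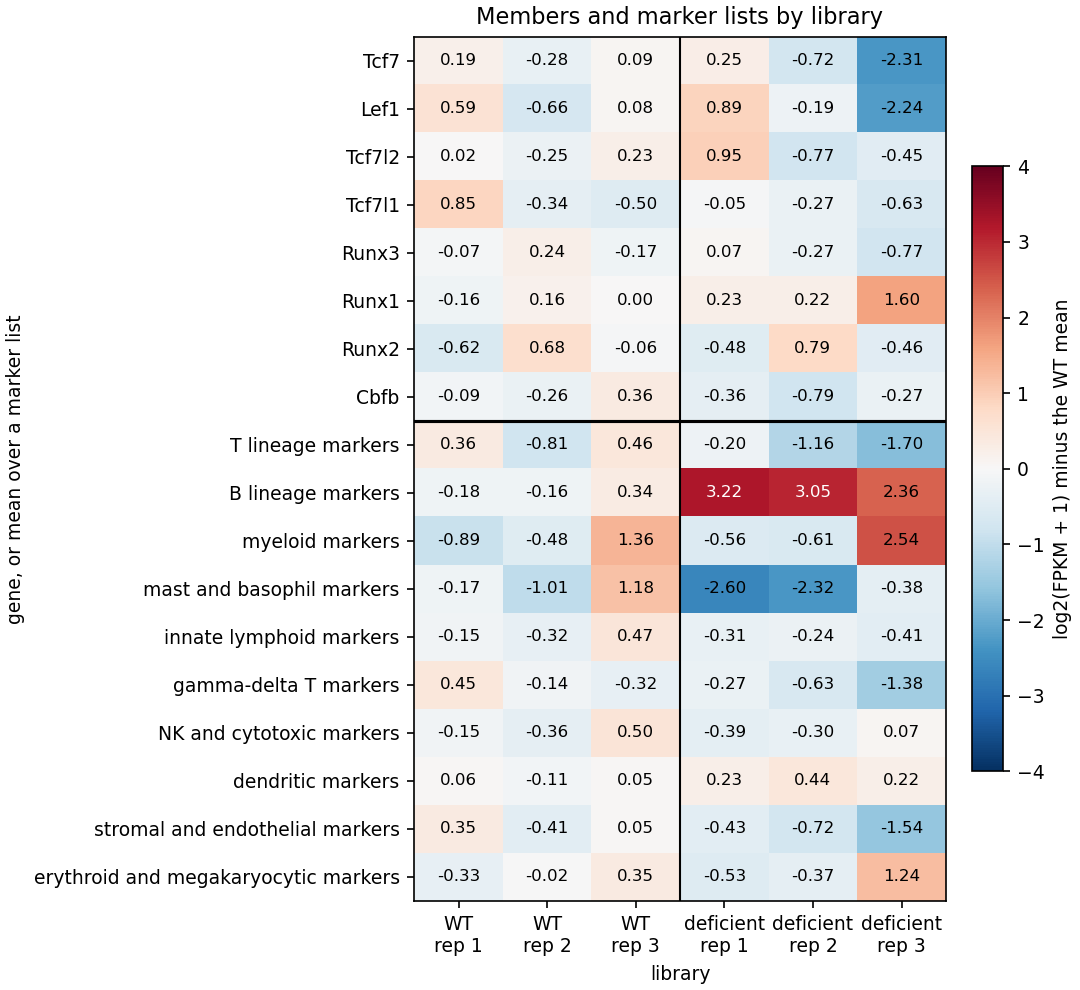
Log2(FPKM + 1) minus the WT mean in each library, for the 8 genes (above the line) and as the mean over each marker list (below it), with red above and blue below the WT mean. Tcf7 (-2.31), Lef1 (-2.24) and T-lineage markers (-1.70) are lowest and Runx1 (1.60) and myeloid markers (2.54) highest in labelled-deficient replicate 3, whereas B-lineage markers are high in all 3 labelled-deficient libraries.

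Genes of most like pattern were sought for 4 members among 7265 tested genes with a mean of at least 5 FPKM, by the root mean square difference between log2(FPKM + 1) profiles centred over the 6 libraries. For Tcf7 they were Pglyrp2 (0.27), Pitpnm2 (0.29) and Axl (0.29), and Lef1 was in place 9 (0.35). For Lef1 the nearest gene of all was Tcf7 (0.35), followed by Maf (0.37) and Nbl1 (0.40). Among the 7 members compared (Tcf7l1 was under that mean), the one nearest to Tcf7 was Lef1 and the reverse, and Runx1 stood at place 6085 of the list for Tcf7. For Runx1 the nearest were Lias (0.15), Upf3b (0.16) and Pptc7 (0.18), each with its highest value in labelled-deficient replicate 3. For Runx3 they were Numa1 (0.05), Prrc2a (0.06) and Scaf1 (0.12), which, like Runx3, varied little. With 6 points, many genes can be this alike.

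Of the 16 RefSeq neighbours of the 8 genes on the chromosome, 10 were tested and 0 passed the limma threshold, where 0.750% of all genes tested did. The likeness of the neighbours' profiles to those of the members was not measured. The neighbours of the 3 genes that differed most in labelled-deficient replicate 3 are given here. Vdac1, next to Tcf7, measured 22.7, 20.3 and 40.5 FPKM in the WT libraries and 14.1, 12.2 and 33.4 FPKM in the labelled-deficient ones. Olfr1371, on the other side of Tcf7, reached at most 1.51 FPKM. Rpl34, on 1 side of Lef1 and joined in the tables with its pseudogene Rpl34-ps1, ranged from 663 to 2050 FPKM, with 1760 FPKM in labelled-deficient replicate 3. Hadh, on the other side, measured 14.5 FPKM in that library, between 6.49 and 18.7 FPKM in the others. Clic6, on 1 side of Runx1, was at 0.193 FPKM or less in all 6 libraries, and Setd4, on the other side, measured 6.4 FPKM in labelled-deficient replicate 3 against 2.41 to 25.9 FPKM in the others.

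Within the span of Runx1 lay many assembled loci without a gene symbol: 48, 66 and 104 in WT and 91, 121 and 190 in the labelled-deficient libraries. The groups overlapped, and labelled-deficient replicate 3, the highest in Runx1, had the most. These loci were 0.0478% to 0.192% of all loci without a symbol in a library. Tcf7, at more than 2 times the Runx1 level in 5 of the libraries, had 0 to 6 such loci in its shorter span. How reads were divided between these loci and the gene is not known, and the strand of the loci is not given.

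The other genes of the pathway were also largely without a call. In lists this short that says little, since only 0.750% of all genes tested were called. Of the 6 Groucho/Tle family members 0 passed the limma threshold, all 6 differences were above 0, and the median was 0.96 against 0.04 over all genes tested. Tle1 had the smallest adjusted p of the family (log2 difference 2.09 ± 0.47, adjusted p = 0.0954). Tle3 measured 26.1, 35.9 and 23.4 FPKM in the WT libraries and 82.6, 77.5 and 58.6 FPKM in the labelled-deficient ones (adjusted p = 0.234), and Tle4 17.9, 18.8 and 14.5 FPKM against 27.8, 35.2 and 17.8 FPKM (adjusted p = 0.726). Aes, the short family member that lacks the repeat domain, differed by 0.03 ± 0.46 (adjusted p = 0.996).

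Of 10 cofactors on the beta-catenin side of Tcf/Lef, 9 were tested and 0 passed in either direction. Of all genes tested 0.750% passed, and the median log2 difference of the list was 0.00. Ctnnb1, the beta-catenin gene, measured 27.4, 25.5 and 50.6 FPKM in the WT libraries and 28.3, 20.7 and 37.7 FPKM in the labelled-deficient ones (limma adjusted p = 0.953). Jup, the gene of its relative plakoglobin, had the smallest p of the list, at 5.69, 7.91 and 4.23 FPKM against 0.763, 2.49 and 1.75 FPKM. Its groups did not overlap, as for 6.56% of all genes tested in that direction, and it did not pass (log2 difference -1.40 ± 0.50, adjusted p = 0.336). Of the Runx cofactors 10 of 11 were tested and 0 passed, with a median of -0.17. Cbfa2t2, a corepressor of the ETO family, had the smallest p (1.14 ± 0.59, adjusted p = 0.585).

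Of 6 other factors that recruit Tle, 5 were tested and Pax5, the B-cell identity factor, rose. It measured 1.73, 2.3 and 7.72 FPKM in the WT libraries and 44.3, 61.5 and 29.2 FPKM in the labelled-deficient ones (log2 difference 3.36 ± 0.53, limma adjusted p = 0.0279). The call held in 8 of 15 alternative settings and the direction in all 15. Leaving out WT replicate 1 (limma adjusted p = 0.126), WT replicate 2 (0.0851), labelled-deficient replicate 1 (0.122) or replicate 2 of that label (0.123) ended it. So did testing low genes too (0.0861), equal summed FPKM (0.485) and the replicate block (0.0793). Pax5 is also a member of the B-lineage markers above. Hes1, a Notch target that ends in a Tle-binding peptide, measured 12.5, 27.0 and 17.2 FPKM against 4.64, 13.8 and 10.9 FPKM, with overlap (adjusted p = 0.596). In the labelled-deficient libraries Pax5 lay above Runx1 in replicates 1 and 2 and below it in replicate 3.

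Genes known to depend on these factors were counted in the same way, where 0.750% of all genes tested were called in either direction. Of 12 T-cell genes known to depend on Tcf7, 0 passed in either direction, 9 differences were below 0 and the median was -0.71 against 0.04 over all genes tested. Cd247, which encodes the CD3 zeta chain, came closest (log2 difference -2.29 ± 0.51, limma adjusted p = 0.0897), at 22.6, 12.1 and 11.7 FPKM under the deficient label, where every WT library had 39.7 FPKM or more. It was low in labelled-deficient replicate 1, where Tcf7 was at its highest. Il2ra, by contrast, measured 2.83, 3.59 and 1.69 FPKM in the WT libraries and 6.75, 7.36 and 4.22 FPKM in the labelled-deficient ones (adjusted p = 0.575). Of this list, 8 of 12 are also among the T-lineage markers.

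Of 12 genes known to be regulated by Runx, 8 were tested and 0 passed, with 5 differences above 0, 3 below and a median of 0.27. Of all genes tested 0.750% passed. Eomes, a T-box factor of cytotoxic cells, had the smallest p, at 4.76, 1.09 and 2.78 FPKM in the WT libraries and 0.0591, 0.142 and 0 FPKM in the labelled-deficient ones (limma adjusted p = 0.203). Zbtb7b, the ThPOK gene that Runx represses in CD8 cells, measured 3.29, 2.23 and 3.86 FPKM in the WT libraries and 10.2, 5.95 and 12.9 FPKM (adjusted p = 0.329), without overlap. A separation in that direction was seen for 8.67% of all genes tested. Spi1, the PU.1 gene of progenitor and myeloid cells that Runx1 represses in thymocytes, was highest in labelled-deficient replicate 3 (72.3 FPKM against 9.67 to 30.3 FPKM), the library with the highest Runx1 and myeloid markers. Of 11 Wnt/beta-catenin targets 6 were tested and 0 passed, with a median of -0.45. Axin2, the usual readout of beta-catenin with Tcf/Lef, measured 6.84, 5.65 and 6.91 FPKM in the WT libraries and 4.02, 3.56 and 7.01 FPKM (adjusted p = 0.873). Apcdd1, a Wnt inhibitor, had the smallest p of that list (-1.31 ± 0.42, adjusted p = 0.258).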

How the data were processed

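RNA-seq of 3 WT and 3 Tle134-deficient DN1 libraries was analysed from 1 table per library. The authors deposited FPKM values for each locus and their confidence bounds, per the file headers. The submitters' processing notes name Trimmomatic 0.38, TopHat2 2.1.1, featureCounts 2.0.1 and mm9, without roles. The layout is that of a Cufflinks gene table; which version, annotation and strand setting it used is not stated in the labels. FPKM is relative to its own library, so abundant transcripts in a library lower its other values. Read counts were not used here, so depth is known only through the bounds.

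FPKM was added over rows of a symbol; symbols that share a locus were joined (24318 symbols, 23401 units). Genes at 1 FPKM or more in at least 3 libraries (11063) were fitted as log2(FPKM + 1) with limma 3.58.1 in R 4.3.3 (group as the only term, trend, robust), adjusted by Benjamini-Hochberg over all genes, threshold 0.05. Fold changes on this scale understate those of low genes. The script was tested on simulated data. Tables were joined with Python 3.11.15 and pandas 2.3.3.

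The members and lists were chosen with earlier results of these data known. Named genes are the 8 members, the genes of each pathway list past the threshold or else with the smallest p, Tle1, Tle3, Tle4, Aes and Ctnnb1, the 3 genes of most like pattern for Tcf7, Lef1, Runx1 and Runx3, and markers beside a member. Hadh, Rpl34, Olfr1371, Vdac1, Setd4, Clic6, Il2ra, Hes1, Zbtb7b, Spi1, Axin2, Supt3, Bst2, Lyz2, S100a8, S100a9, Cd14, Elane, 5830411N06Rik, Pdgfrb, Tpsb2, Cma1, Ms4a2, Hdc, Gata2, Nkg7 and Ncr1 were added after their values were seen. Alternatives covered the pseudocount, the filter, 3 scalings, the empirical Bayes step, a replicate block and each library left out. Promoter letters are from RefSeq (GRCm38.p6), where 8 of 8 symbols matched; no mm9 coordinate was compared with them.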

Additional observations from a re-analysis of the deposited data

How the results depend on the processing

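Over 15 alternative settings, 0 of the 120 recomputed differences of the 8 genes passed the threshold, and the smallest adjusted p was 0.498 (Tcf7 with the replicate block). Tcf7, Runx1, Runx3 and Cbfb kept their direction in all of them. As each library was left out, Lef1 ranged from -1.22 to 0.35, Tcf7l1 from -0.57 to 0.11, Tcf7l2 from -0.61 to 0.25 and Runx2 from -0.47 to 0.29. Genes called over the whole table, 71 higher and 12 lower, were less stable: 0 and 0 without a filter on low values, 3 and 1 with equal summed FPKM, 50 and 3 with a pseudocount of 0.1, 51 and 4 without trend and robust steps, and 0 to 56 higher and 0 to 11 lower as each library was left out. Equal summed FPKM also moved WT means by more than their SD, to 271 (Tcf7), 10.8 (Tcf7l2), 24.5 (Runx1), 15.9 (Runx2), 54.2 (Runx3) and 31.8 FPKM (Cbfb). Summed FPKM over loci with a symbol ran from 268034 in WT replicate 2 to 2582386 in WT replicate 3. This scaling therefore divided the values of these libraries by 0.300 and 2.89. The cause of that spread was not tested.

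With the replicate number as a block, 1 gene was higher and 1 lower. Same-numbered libraries deviated together with a correlation across genes of 0.084, 0.182 and 0.174, and each library correlated best with its own number. Loci without a symbol were 85.2% and 87.0% of all loci in replicate 2 of WT and labelled-deficient, against 67.5% to 80.4% in the other libraries. The labels state no pairing, so the main fit used none. Whether same-numbered libraries were handled together was not tested. Equal upper quartiles shifted the median of all genes to -0.09 from 0.04. The deposited bounds were widest for Runx1 in WT replicate 1 (94.9% of the value on each side). They also limit Tcf7l1 in all 6 libraries and Tcf7l2 in replicate 1 of each group and WT replicate 3, which are not all the shallow ones.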
